A study of Bos taurus with 40 samples.

Results

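The core histone genes described here are the 35 of 59051 rows in each of 4 bovine RNA count tables whose names mark a core histone. They were chosen by name alone: HIST followed by a digit and H2A, H2B, H3 or H4, or a name starting with H2AF, H2BF or H3F, with linker histones left out. Of the 35 rows, 26 carry cluster histone names (11 H2A, 11 H2B, 3 H3 and 1 H4, HIST1H4D) and 9 carry variant names (6 H2A and 3 H3), and none starts with H2BF. RefSeq names were matched for 18 of the 35, and some rows collide there: HIST1H2BD and HIST1H2BI both lead to H2BC5, and HIST1H2BB and HIST1H2BN both lead to H2BC15.

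Core histones form the protein spool around which DNA is wound. Cluster histone genes lie together in the genome, are read mainly in S phase, and yield mRNAs that usually end in a stem-loop in place of a poly(A) tail, so that a library built from poly(A) tails catches few of them. Variant histones such as H3.3, H2A.Z, H2A.X and macroH2A come mostly from single genes with ordinary polyadenylated mRNAs, are made throughout the cell cycle and replace cluster histones outside DNA replication. A growing oocyte stores histone mRNA and protein for the first divisions of the embryo, and in mouse the stem-loop binding protein keeps its cluster histone mRNAs usable through meiosis.

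The study sampled single bovine (Bos taurus) follicles, all labelled diploid, with no treatment that sets groups apart. Granulosa cells, which line the follicle, were taken from individual follicles, the cumulus-oocyte complexes were matured in vitro, and cumulus cells (the layer attached to the oocyte) and a biopsy of the ooplasm (oocyte cytoplasm) were then taken. Granulosa libraries, biopsies and cumulus libraries fall into 2 fates, with 4 libraries for oocytes that became blastocysts and 4 for those that stopped at cleavage. A further 4 biopsies were matched by number to 4 whole oocytes, which carry no fate label. The molecule is labelled polyA RNA, age and breed of the animals are not given in the labels, and the labels do not say how many animals gave the samples, so a p-value speaks of the spread among these libraries, which may be technical.

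Library totals, in units of 1000000 counts, ran from 9.88 to 17.7 (granulosa), 7.96 to 9.59 (cumulus), 16.8 to 22.6 (biopsies of known fate) and 13.4 to 23.8 (matched set). Levels are counts per 1000000 counts (CPM) scaled by TMM within each table, and errors are SD. A level with 3 counts, the smallest taken as measurable, was at most 0.380 CPM in any library. Log2 differences between cell types were fitted with TMM over both tables joined, so they need not match the ratio of these CPM in size or sign. H3F3B, for one, averaged 1459 CPM in biopsies and 2030 in granulosa cells, with a fitted log2 difference of 0.17. Of the markers listed for each cell type, the oocyte gene H1FOO was the one with a row under its symbol, so the granulosa and cumulus labels could not be checked. H1FOO, the oocyte linker histone, lay at 716 to 1524 CPM in the 8 biopsies of known fate and at 453 to 999 in whole oocytes, and was at 0 in 7 of 8 cumulus libraries. Granulosa library B20 of the blastocyst group stood apart, with a summed variant histone level of 366 CPM where the other 7 granulosa libraries held 2677 to 7792. TMM factors were 1.91 for B20 and 1.60 for D27 of the same group, and 0.724 to 0.994 in the other granulosa libraries. Some core histone calls and class medians are therefore also given without B20, and other granulosa values include it unless stated.

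Rows of these tables are not independent counts of separate genes. HIST2H2AA4 and HIST1H2AK differed by 42 counts over 18724 counts in all (0.224%), so they are uncertain as separate genes and enter sums once. Both stay in the counts of rows tested and called and in the medians over rows. For 20 of the 33 rows with at least 100 counts, an unnamed Ensembl row held counts that differed by no more than 5%, so the same reads stand in both. Other cluster genes are close copies of each other too, and reads may move between them. Because the files give no transcript lengths, levels are compared between cell types for a given row, and shares within a class are shares of counts.

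Summed cluster histone levels averaged more in oocyte material than in the somatic cells of the follicle, and against granulosa cells much of that margin lay in 1 row, HIST1H2AH. The sum was 407 ± 124 CPM in the 8 biopsies (n = 8, 276 to 662), 416 ± 199 in the matched biopsies (n = 4) and 403 ± 147 in whole oocytes (n = 4, 289.5 to 605). Granulosa cells had 201 ± 118 CPM (n = 8, 26.1 to 353) and cumulus cells 79.5 ± 10.3 (n = 8, 64 to 93.9). Without HIST1H2AH the sums were 275 ± 51.1 CPM in blastocyst-group and 314 ± 123 in cleavage-group biopsies, 307 ± 146 in matched biopsies and 263 ± 81.2 in whole oocytes (n = 4 each), against 146 ± 128 and 252 ± 88.2 in blastocyst- and cleavage-group granulosa cells. With all rows, the highest granulosa libraries overlapped the lowest biopsies, whereas no cumulus library reached any oocyte or biopsy value. These sums run over the chosen rows and were given no test. In the bulk granulosa and cumulus samples, fewer cells holding a transcript and less of it per cell cannot be told apart. Cell type and count table also cannot be told apart. Since the molecule is labelled polyA RNA, the level of a cluster transcript and the part of it that was caught cannot be told apart either.

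H2A variant counts ran the other way. Their sum was 38.3 to 98.3 CPM in biopsies and 33.5 to 49.9 in whole oocytes, against 589 to 654 in cumulus cells. Granulosa cells spanned 205 to 2351 CPM, where B20 was the lowest library and still lay above every biopsy and oocyte. H3.3-type variants did not separate in this way: their sum was 2078 ± 181 CPM in biopsies, 2353 ± 614 in whole oocytes, 749.7 ± 40.9 in cumulus cells and 2649.6 ± 1498 in granulosa cells, which overlapped the biopsies.

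**Figure D1:**
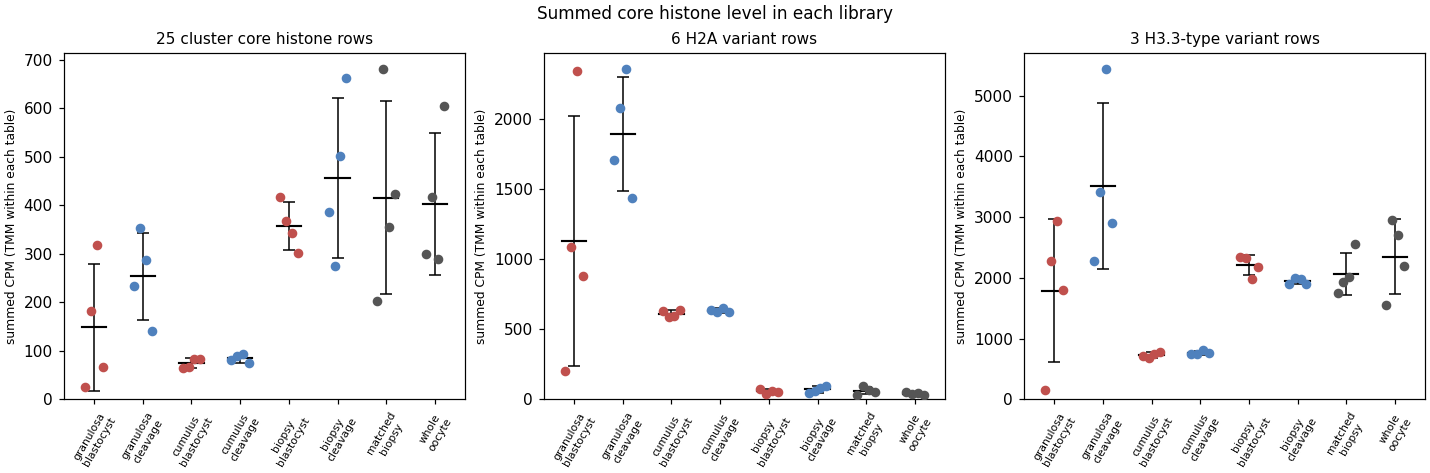
Summed CPM (linear axes, TMM within each table) of 25 cluster rows, 6 H2A variant rows and 3 H3.3-type rows, each point 1 library, the bar the group mean and the whiskers 1 SD (n = 4). Cluster sums are highest in biopsies and oocytes, H2A variants are near the floor of the axis there, and granulosa groups spread widest.

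The make-up of each class differed between cell types as well. H2A variants gave 1.62% to 4.91% of the variant counts in biopsies and 1.27% to 3.10% in whole oocytes, but 44.1% to 46.6% in cumulus cells and 30.2% to 56% in granulosa cells, with no overlap between oocyte material and somatic cells. Among counts of cluster rows under the naming rule, H2B rows gave 85.4% to 90.1% in cumulus cells. They gave 33.7% to 57.1% in granulosa cells and 13.4% to 47.2% in biopsies. H4 rows outside that rule are left out of these shares. One H2A row, HIST1H2AH, gave 16.6% to 40.4% of cluster counts in biopsies and 27.9% to 40.0% in whole oocytes, and at most 2.16% in any granulosa library. Of the counts of core histone rows under the naming rule, cluster rows made up 15.9 ± 4.40% in biopsies and 14.7 ± 5.07% in whole oocytes. The share was 4.78 ± 1.52% in granulosa cells and 5.47 ± 0.537% in cumulus cells. These shares move with the most abundant rows, as given among the processing effects. They leave out core histone genes under other names, such as H4C14, at 131 CPM in biopsies and 61.4 in granulosa cells.

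**Figure D2:**
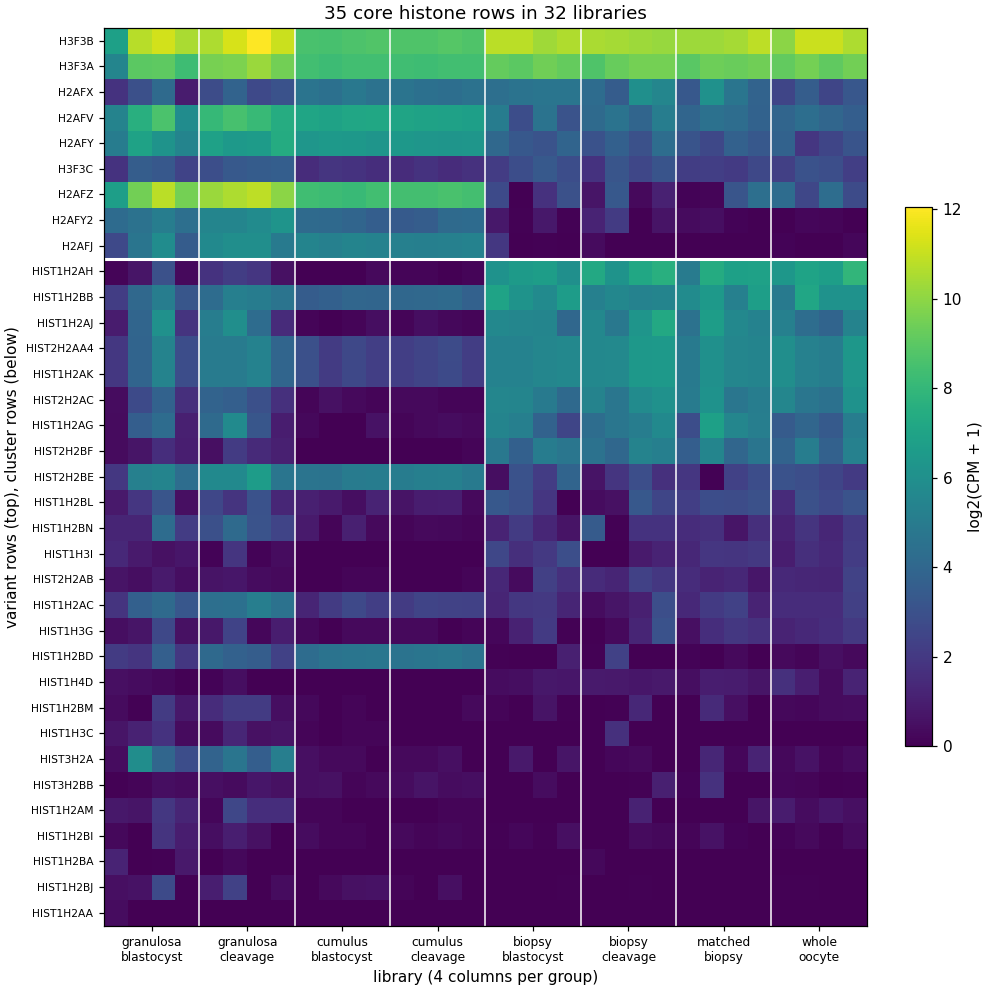
log2(CPM + 1) of the 35 core histone rows (variants above the white line, cluster rows below) in 32 libraries, 4 columns per group. H2AFZ, H2AFV, H2AFY, H2AFY2 and H2AFJ are bright in granulosa and cumulus columns, and HIST1H2AH, HIST2H2AC and HIST2H2BF in biopsy and oocyte columns.

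Between biopsies and granulosa cells, 31 of the 35 rows had enough counts to be tested, 11 of these were higher in biopsies and 11 lower, each at an adjusted p under 0.05 (edgeR quasi-likelihood test, Benjamini-Hochberg over all rows). Over all 28229 rows tested 28.4% were called higher and 24.6% lower, so the count of calls by itself sets core histones little apart. Of 22 cluster rows 10 were higher and 6 lower, with a median log2 difference of 1.17, while of 9 variant rows 1 was higher and 5 lower, with a median of -2.38, beside -0.06 over all rows. Leaving out B20 kept the same 22 calls. The cluster median lay closer to that of all rows without B20 (0.70 beside 0.11) and without B20 and D27 (0.34 beside 0.23), whereas the variant medians were then -2.51 and -2.74. With library totals in place of TMM all rows shifted to a median of -0.63 and the cluster and variant medians to 0.56 and -2.89.

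The 5 variants lower in biopsies all belong to the H2A family. H2AFZ, which encodes H2A.Z, a variant placed at promoters and needed in early mouse development, was at 0 to 8.89 CPM with a median of 1.74 in biopsies and 106 to 1857 CPM with a median of 1098 in granulosa cells (log2 -7.82, SE 0.95, edgeR adjusted p = 1.25e-06). The highest biopsy lay below the lowest granulosa library, B20. H2AFV, which encodes a second form of H2A.Z, lay at 6.26 to 33.2 CPM against 41.2 to 398 (log2 -2.85, SE 0.44, edgeR adjusted p = 1.91e-05), again without overlap.

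H2AFY and H2AFY2 encode macroH2A1 and macroH2A2, variants with a large extra domain that are enriched on silent chromatin. H2AFY was at 6.88 to 18.6 CPM in biopsies and 32.1 to 169 in granulosa cells (log2 -2.38, SE 0.34, edgeR adjusted p = 9.07e-06). H2AFY2 was at 0 to 3.27 against 17.8 to 74.1 CPM (log2 -5.12, SE 0.73, edgeR adjusted p = 8.33e-06). Neither row overlapped between the cell types. H2AFJ, which encodes H2A.J, a variant that builds up in senescent human cells, had no count in 5 of 8 biopsies and at most 2.83 CPM, in B20, against 5.42 to 60.9 in granulosa cells (log2 -6.30, SE 1.25, edgeR adjusted p = 0.000299).

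H2AFX was the 1 variant higher in biopsies. It encodes H2A.X, the histone that is phosphorylated beside DNA breaks, and its mRNA is known in human cells in both a stem-loop and a polyadenylated form. Its level was 10.3 to 62.5 CPM with a median of 23.7 in biopsies and 0.867 to 17.1 CPM with a median of 6.33 in granulosa cells, where D24 was highest and D27 lowest (log2 2.58, SE 0.50, edgeR adjusted p = 0.000224). The ranges overlapped. Whole oocytes, in a separately scaled table, held 4.66 to 10.8 CPM of H2AFX, inside the granulosa range. The call therefore covers biopsies alone, and a difference between whole oocytes and granulosa cells was not tested. The H3.3 genes H3F3A and H3F3B, which encode the same protein, had levels of 614 ± 113 and 1459 ± 243 CPM in biopsies and 612 ± 346 and 2029.8 ± 1173 in granulosa cells, and did not pass the test (log2 0.75, SE 0.37, and log2 0.17, SE 0.41). H3F3C, another H3.3-type row with 2 RefSeq entries, was at 2.43 to 9.39 against 2.39 to 11.3 CPM (log2 0.22).

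Cluster H2A rows held most of the higher calls. HIST1H2AH, an H2A gene of the large cluster, lay at 62.7 to 193 CPM with a median of 98.2 in biopsies and 0.106 to 6.86 CPM with a median of 1.49 in granulosa cells (log2 6.32, SE 0.69, edgeR adjusted p = 3.26e-07). The lowest biopsy was above the highest granulosa library, D24, with a wide gap. HIST2H2AC, an H2A gene of the second cluster, was at 16.2 to 67.9 against 0.319 to 13.2 CPM (log2 3.24, SE 0.54, edgeR adjusted p = 4.74e-05), also apart. The near-identical pair HIST2H2AA4 and HIST1H2AK was higher by log2 1.96 and 1.95, and HIST2H2AB, at 0.261 to 3.98 CPM in biopsies, by 2.75. HIST1H2AJ and HIST1H2AG were higher by log2 1.81 and 1.84, but their ranges overlapped broadly (HIST1H2AJ at 15.3 to 156 in biopsies and 0.903 to 66.7 CPM in granulosa cells). Both calls were lost with library totals, and those of HIST1H2AG and HIST1H2AJ under 12 and 9 of 22 alternatives in all, most of them leaving out 1 library.

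Other cluster H2A rows were lower in biopsies. HIST3H2A, from the third and smallest cluster, was at 0 to 0.783 CPM in biopsies and 0.319 to 58.8 in granulosa cells, where B20 lay inside the biopsy range and B21 was highest (log2 -6.04, SE 1.11, edgeR adjusted p = 0.000135). HIST1H2AC was at 0.327 to 6.32 against 2.55 to 34.4 CPM (log2 -2.29). HIST1H2AM had counts in 1 of 8 biopsies, at 1.25 CPM in D10, and lay at 0.142 to 4.95 in granulosa cells (log2 -3.92). HIST1H2AC is one of the cluster rows, with HIST1H2BD and HIST2H2BE, for which polyadenylated transcripts have been described in human cells.

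Cluster H2B rows split in the same manner. HIST2H2BF, an H2B gene of the second cluster, was at 11.9 to 40.6 CPM with a median of 26.3 in biopsies and 0.266 to 3.24 CPM with a median of 1.06 in granulosa cells, with no overlap (log2 5.0, SE 0.51, edgeR adjusted p = 1.36e-07). HIST1H2BB followed at 37.2 to 126 against 3.56 to 36 CPM (log2 2.17, SE 0.43, edgeR adjusted p = 0.000316), where the lowest biopsy just exceeded the highest granulosa library. In the other direction, HIST2H2BE was at 0.367 to 14 CPM in biopsies and 2.81 to 100.3 in granulosa cells (log2 -2.52, SE 0.74, edgeR adjusted p = 0.00712), with overlap through B20 alone. HIST2H2BE and HIST2H2AC are next to each other in the RefSeq gene table, and 1 was lower and the other higher in biopsies.

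HIST1H2BD was lower in biopsies by log2 -3.16 (SE 1.15), with 4 of 8 biopsies at 0 and B23 at 4.09 CPM inside the granulosa range, and the call ended without granulosa D24 (edgeR adjusted p = 0.0531). HIST1H2BJ had 2 counts over all biopsies and 166 over the granulosa libraries, a ratio per library total of 109 in favour of granulosa cells with a 95% exact counting interval of 29.6 to 904. Such intervals cover counting error only. HIST1H2BJ ran from 0 to 88 counts per granulosa library, with D24 highest. The 3 H3 rows stayed low everywhere: HIST1H3G, HIST1H3I and HIST1H3C averaged 1.68 ± 2.48, 2.31 ± 2.31 and 0.268 ± 0.758 CPM in biopsies, and none passed the test. With the oocyte label, which pairs these libraries, as a block, HIST1H3C was called lower in biopsies (log2 -5.10, edgeR adjusted p = 0.00714), as was the H2B row HIST1H2BM (log2 -3.08, edgeR adjusted p = 0.0378). HIST1H4D, the 1 H4 row under the naming rule, was at 0.315 to 0.841 CPM in biopsies and 0 to 0.425 in granulosa cells (log2 2.40). That call was lost under 13 of 22 alternatives, library totals and no filter on low counts among them. HIST1H2BA and HIST1H2AA, the testis-type H2B and H2A known from mouse and human, had at most 1.27 and 0.319 CPM in any library, both in granulosa B20.

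**Figure D3:**
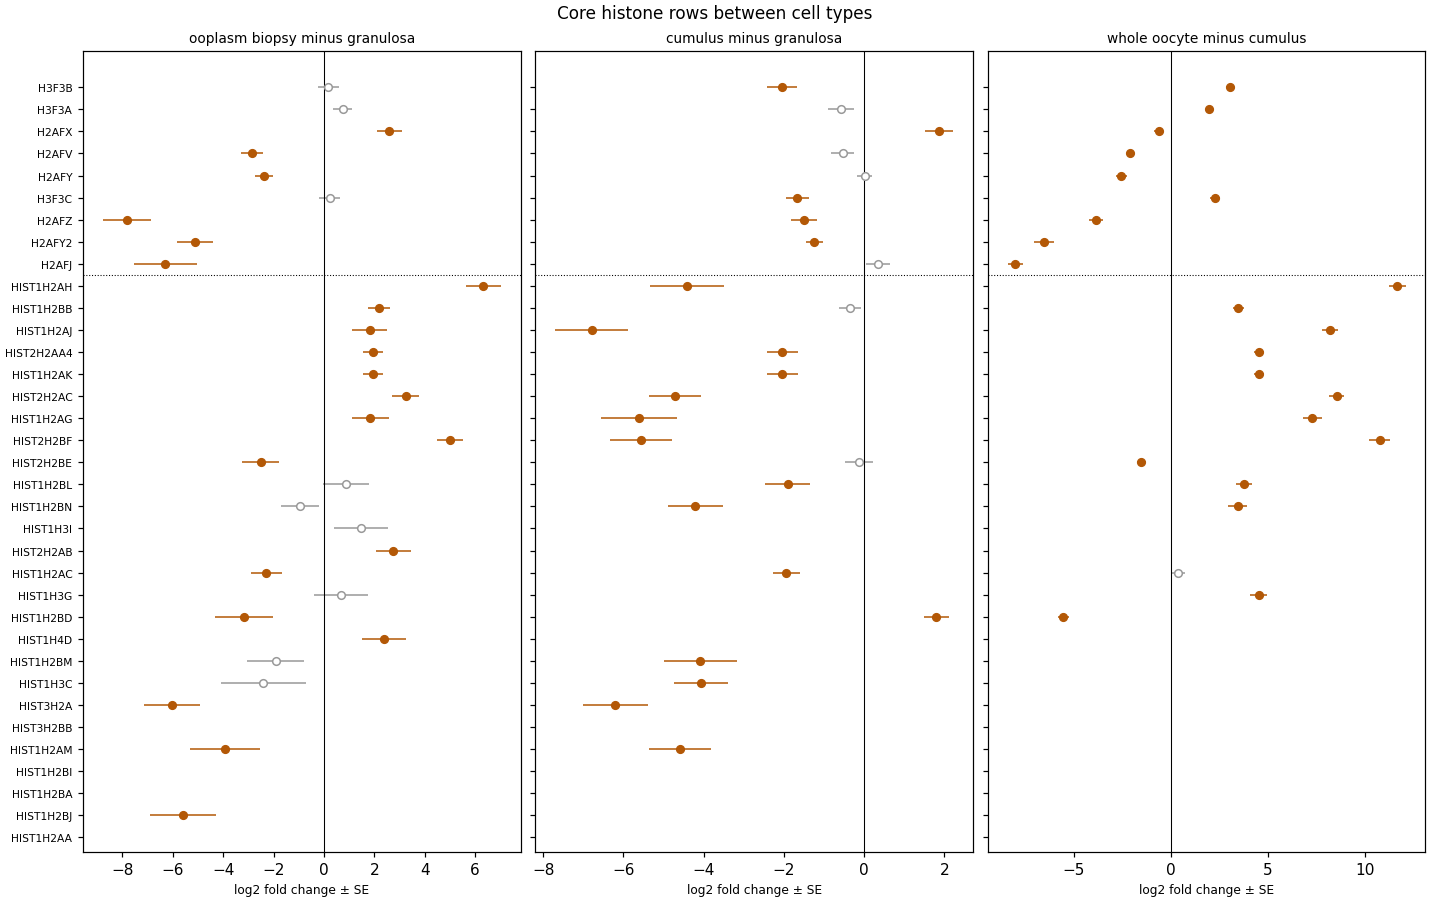
log2 fold change ± SE (linear axes) of core histone rows between cell types by edgeR. Filled points passed an adjusted p under 0.05, open points did not, and rows with no point had too few counts; variants stand above the dotted line. H2A variants other than H2AFX fall left of 0 in the biopsy panel, and most cluster rows fall left of 0 in the cumulus panel.

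Cumulus cells had fewer cluster histone counts than granulosa cells. Of 26 rows tested 2 were higher and 18 lower in cumulus cells, where 25% of all 21929 rows were called higher and 44.5% lower (edgeR quasi-likelihood). The 17 cluster rows included 1 higher and 14 lower, with a median log2 difference of -4.08, the 9 variants included 1 higher and 4 lower, with a median of -0.58, and the median over all rows was -0.56. With every library in, the variant median thus sat near that of all rows. Without granulosa B20 the variant median was -0.74 beside -0.52 over all rows, and without B20 and D27 it was -0.81 beside -0.46. Without granulosa B20 the lower calls gained H2AFV and H3F3A, while HIST1H3C had too few counts to be tested, as it had without B21 or D24.

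HIST1H2AJ, HIST1H2AG and HIST2H2AC were close to 0 in cumulus cells. HIST1H2AJ was at 0 to 0.380 CPM in cumulus cells and 0.903 to 66.7 in granulosa cells (log2 -6.79, SE 0.91, edgeR adjusted p = 8.00e-06). HIST3H2A was at 0 to 0.429 against 0.319 to 58.8 CPM (log2 -6.20, SE 0.81, edgeR adjusted p = 6.01e-06), with B20 again inside the range of the other cell type. HIST2H2AC, at 0.105 to 0.476 CPM in cumulus cells, was lower by log2 -4.72, HIST1H2AG by -5.62 and HIST1H2BN by -4.20. HIST2H2BF had 1 count over the 8 cumulus libraries and 139 over the granulosa libraries, a ratio of 82.2 (exact interval 14.5 to 3269). HIST1H3I and HIST1H4D had no count in any cumulus library and too few counts to be tested. Pooled over libraries, they were at least 18.5-fold and 4.34-fold higher in granulosa cells, taking 3 counts over the cumulus group as the floor. Their granulosa counts were uneven, at 1 to 30 per library for HIST1H3I and 0 to 8 for HIST1H4D.

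Not all cluster rows behaved so. HIST1H2BD was at 17.9 to 26.3 CPM with a median of 23.9 in cumulus cells and 2.59 to 16.4 CPM with a median of 7.37 in granulosa cells, the 1 cluster row that was higher in cumulus cells, and every cumulus library exceeded every granulosa library (log2 1.80, SE 0.31, edgeR adjusted p = 9.90e-05). HIST2H2BE, at 23.2 to 37.3 CPM in cumulus cells, did not differ by the test (log2 -0.13, SE 0.34), nor did HIST1H2BB, at 10.4 to 17.2 CPM (log2 -0.35, SE 0.27). Without granulosa B20 and D27, HIST1H2BB was called lower in cumulus cells (log2 -0.55, edgeR adjusted p = 0.0142). Among cluster rows under the naming rule, these 3 H2B rows held the largest shares of cumulus counts. HIST2H2BE had 38.6%, HIST1H2BD 29.6% and HIST1H2BB 17.6%. H4 rows outside that rule, which these shares leave out, reached like levels in cumulus cells (H4C13 30.1, H4C1 17.8 and H4C14 12.2 CPM).

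Among variants, H2AFX was higher in cumulus cells, at 19.6 to 27.1 CPM with a median of 22.2, with all 8 libraries above all granulosa libraries (log2 1.87, SE 0.35, edgeR adjusted p = 0.00022). H2AFZ was lower at 285 to 383 CPM (log2 -1.50, SE 0.32, edgeR adjusted p = 0.000559), although B20 lay under the cumulus range. H3F3B was lower at 369.6 to 474 CPM (log2 -2.05), H3F3C at 1.88 to 2.62 (log2 -1.67) and H2AFY2 at 9.73 to 17.4 (log2 -1.24). H2AFJ, H2AFY, H2AFV and H3F3A did not pass the test, with log2 differences of 0.35, 0.02, -0.54 and -0.58.

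Cumulus libraries were also the most alike. Over rows with a mean of at least 5 CPM, the coefficient of variation had a median of 9.03% in cumulus cells (11 rows), 40.2% in biopsies (14 rows), 48.2% in whole oocytes (17 rows) and 63.8% in granulosa cells (20 rows). H2AFY, with 80.6, 88, 84 and 77.6 CPM in the blastocyst group and 84.2, 80.3, 77.9 and 79 in the cleavage group, was among the steadiest.

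Whole oocytes and cumulus cells differed in nearly every core histone row that could be tested. Of 23 rows 14 were higher in oocytes and 8 lower, and of all 19202 rows 48.3% were called higher and 41.7% lower (edgeR quasi-likelihood), so that being called here says little by itself. Of 14 cluster rows 11 were higher and 2 lower, with a median of 4.53 on the log2 scale, and of 9 variants 3 were higher and 6 lower, with a median of -2.11, beside 0.33 over all rows. With library totals the median of all rows moved to -0.71, and the class medians to 3.52 and -3.20 with the same 14 and 8 calls. This contrast shares its cumulus libraries with the one against granulosa cells.

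All 3 H3.3-type rows were higher in oocytes. H3F3B was at 984, 2195, 2139 and 1491 CPM in oocytes 2, 3, 6 and 16 against 369.6 to 474 in cumulus cells (log2 3.03, SE 0.19, edgeR adjusted p = 5.05e-10). H3F3A was at 570.3, 744, 559 and 705 CPM against 306 to 342 (log2 1.96, SE 0.13, edgeR adjusted p = 4.81e-10). Both rows were apart in every library. H3F3C was higher by log2 2.27, at 3.77 to 7.19 CPM.

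All 6 H2A variants were lower in oocytes. H2AFJ had 0.0988, 0, 0 and 0.166 CPM in the 4 oocytes, none of them above 3 counts, against 35.4 to 41.8 in cumulus cells. H2AFY2 likewise had 0, 0.167, 0.118 and 0 CPM against 9.73 to 17.4. H2AFZ, at 18.2, 4.85, 18.5 and 5.70 CPM, was lower by a log2 difference of -3.85 (SE 0.36, edgeR adjusted p = 4.42e-08), H2AFY of -2.55 and H2AFV of -2.11. H2AFX was at 4.74, 10.8, 4.66 and 8.81 CPM, all under the cumulus range, with log2 -0.64 (SE 0.24, edgeR adjusted p = 0.0188). That call ended without oocyte 6, at log2 -0.49 and an edgeR adjusted p of 0.0595.

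Among the cluster rows higher in oocytes were several close to 0 in cumulus cells. HIST1H2AH was at 83.4, 124, 108 and 242 CPM in the 4 oocytes and at most 0.253 in cumulus cells, under the level of 3 counts (log2 11.66, SE 0.42, edgeR adjusted p = 1.04e-12). HIST2H2BF had 1773 counts over the oocytes and 1 over the cumulus libraries, a ratio of 1585 (exact interval 284 to 62645). HIST2H2AC and HIST1H2AJ were higher by log2 8.54 and 8.19, and HIST1H2AG, HIST2H2AA4, HIST1H2AK, HIST1H3G, HIST1H2BL, HIST1H2BB and HIST1H2BN by 3.44 to 7.29. The 2 lower cluster rows were HIST1H2BD (log2 -5.54) and HIST2H2BE (log2 -1.52), while HIST1H2AC did not pass (log2 0.38, SE 0.32). Polyadenylated forms of these 3 rows have been described in human cells.

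Between a biopsy and the whole oocyte with its number, none of the 23 core histone rows tested was called, as 0% of 18540 rows were (edgeR quasi-likelihood), and DESeq2 called none of them either. At an unadjusted p under 0.05 there were 2 core histone rows, beside 5.54% of all rows. The median log2 difference was -0.06 for 16 cluster rows, -0.04 for 7 variants and -0.03 over all rows. Pairs with one number were taken as pairs, and a fit with the number as a block called none of the rows.

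H2AFX had the smallest p of these rows. Its level was 8.97, 67.1, 24.9 and 13.1 CPM in biopsies 2, 3, 6 and 16 and 4.74, 10.8, 4.66 and 8.81 in the oocytes with those numbers. Each of the 4 biopsies exceeded its own oocyte, by a factor of 1.89, 6.21, 5.35 and 1.48, although biopsy 2 lay within the range of the oocytes. The difference did not pass (log2 2.0, SE 0.60, edgeR adjusted p = 0.695, and 1.66 with an adjusted p of 0.628 in the block on number). In the biopsies of known fate, a separately scaled table, H2AFX spanned 10.3 to 62.5 CPM.

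HIST1H2AG was at 6.16, 116, 44.8 and 34.1 CPM in the biopsies and 9.88, 14.5, 9.73 and 33.1 in the oocytes, higher in 3 of 4 biopsies (log2 1.60, SE 0.68, edgeR adjusted p = 0.855). HIST1H2AJ was at 22, 105, 47.5 and 40.2 CPM and 36.6, 18.5, 13.7 and 40.8, and 2 of 4 pairs pointed each way (log2 0.99, SE 0.48, edgeR adjusted p = 0.887). Biopsy 3 held the highest value of all 3 of these H2A rows, and of HIST1H2AH (170.3 CPM) among the biopsies. The other rows of smallest p were HIST1H4D (log2 -0.79) and H3F3C (log2 -0.43), both with overlapping groups.

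**Figure D4:**
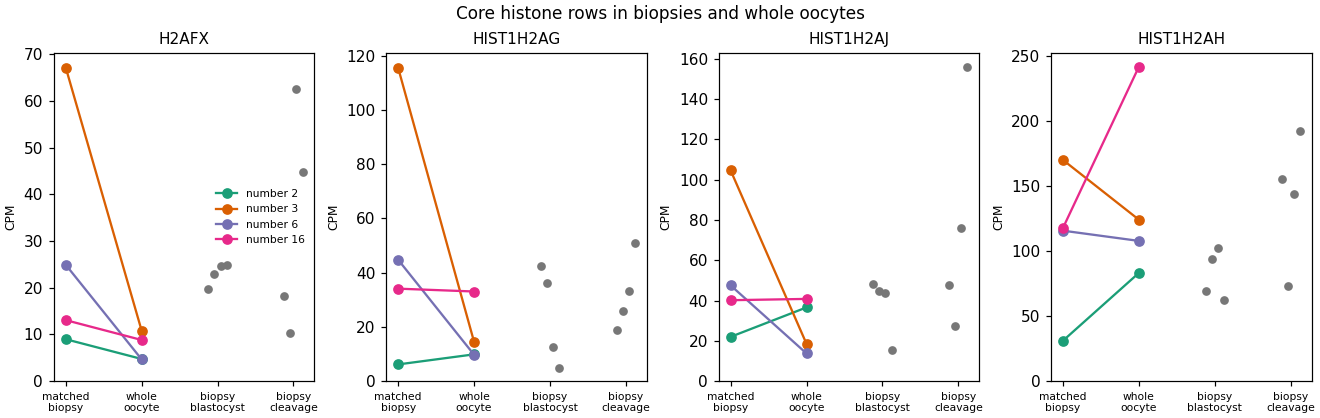
CPM (linear axes from 0) of 4 H2A rows in matched biopsies and whole oocytes, lines joining equal numbers, beside the 8 biopsies of known fate (grey, a separately scaled table). H2AFX is lower in the oocyte than in its biopsy in 4 of 4 pairs, and biopsy 3 is the highest matched biopsy in each panel.

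In granulosa cells, no core histone row passed the test between fates, while 21.6% of 22934 rows did, 21.3% higher and 0.349% lower in the blastocyst group. That share, 4964 rows in all, rested on few libraries. Separate fits called 3162 rows without B20, 2482 without D27, 8131 without B23 and 0 without B20 and D27. DESeq2 called none of the 29 rows tested either, with 32.4% of its rows called, and 1 core histone row had an unadjusted edgeR p under 0.05, beside 36.8% of all rows. The 20 cluster rows had a median log2 difference of -0.55 and the 9 variants of -0.68, beside 0.10 over all rows. Summed cluster counts were 26.1, 182, 318 and 67.7 CPM in blastocyst-group libraries B20, B21, D24 and D27 and 234, 353, 287 and 141 in cleavage-group libraries B14, B23, D10 and D29. The lowest 2 values were B20 and D27, and D24 lay inside the cleavage range.

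The class medians rested on single libraries. Without B20 they were -0.08 for cluster rows and -0.23 for variants, without B20 and D27 0.02 and -0.20, and without D24 -1.52 and -1.21. With library totals the all-row median moved to 0.70 and the class medians to -0.002 and -0.19. H2AFY2 had the smallest p, at 17.8, 22.2, 33.7 and 20.2 CPM against 44, 43.6, 56 and 74.1, so that all 4 blastocyst libraries lay below all 4 cleavage libraries (log2 -1.02, SE 0.36, edgeR adjusted p = 0.0631). Without D24, H2AFY2 (log2 -1.21, edgeR adjusted p = 0.0496) and H2AFJ (log2 -1.77, edgeR adjusted p = 0.0446) were called lower.

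HIST1H2AC was at 2.55, 12.1, 17.2 and 8.61 CPM in the blastocyst group and 20.1, 20.6, 34.4 and 22.3 in the cleavage group, without overlap (log2 -1.13, SE 0.53, edgeR adjusted p = 0.147). H3F3A was at 43.1, 521, 538 and 312 against 757, 811, 1195 and 717 CPM (log2 -1.18, SE 0.66, edgeR adjusted p = 0.206), also without overlap and with B20 far below the rest. H2AFJ and HIST2H2BE differed by log2 -0.97 and -1.07, with overlapping groups. The oocyte marker H1FOO, the 1 of 17 listed oocyte genes with a row, was at 18, 9.72, 6.04 and 12 CPM in the blastocyst group and 0.498, 7.05, 0.318 and 0.617 in the cleavage group, and its part in these values was not tested.

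In cumulus cells, the fates differed little. None of 15 core histone rows was called and 0% of 15410 rows were (edgeR quasi-likelihood), while DESeq2 called 0 core histone rows and 0.605% of its rows. At an unadjusted edgeR p under 0.05 there were 2 core histone rows, beside 14.6% of all rows. The 6 cluster rows had a median of -0.16, the 9 variants of 0.08 and all rows of 0.004 on the log2 scale.

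The rows nearest the threshold moved by small steps. HIST2H2BE was at 23.5, 23.2, 31.2 and 32.1 CPM in the blastocyst libraries and 32.8, 35.4, 37.3 and 30.4 in the cleavage libraries, overlapping (log2 -0.30, SE 0.12, edgeR adjusted p = 0.278). H2AFZ was at 331, 305, 285 and 342 against 349, 351, 383 and 352 CPM, with every cleavage library above every blastocyst library (log2 -0.18, SE 0.07, edgeR adjusted p = 0.282). H2AFV was 0.15 higher on the log2 scale in the blastocyst group, and HIST1H2BB and H3F3B differed by -0.25 and -0.12, none past the threshold.

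In ooplasm biopsies, taken from oocytes whose fate was followed, cluster histone counts averaged 357 ± 48.5 CPM in the blastocyst group and 456 ± 165 in the cleavage group. None of 24 core histone rows was called and 0% of 21174 rows were (edgeR quasi-likelihood), DESeq2 called 0 core histone rows and 0.438% of its rows, and 2 core histone rows had an unadjusted edgeR p under 0.05, beside 4.8% of all rows. The median log2 difference was -0.44 for 16 cluster rows, -0.01 for 8 variants and -0.02 over all rows. By family, cluster H2A sums were 248, 263, 242 and 152 CPM in the blastocyst group and 314, 204, 398 and 564 in the cleavage group, and cluster H2B sums 165, 101, 94.5 and 142 and 70.8, 68.8, 100.01 and 88.9. Both families overlapped between the fates.

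HIST1H2BB had the smallest p among biopsies. It was at 126, 71.3, 53.1 and 101 CPM in blastocyst-group biopsies and 37.2, 46.2, 39.8 and 42.2 in cleavage-group biopsies. All 4 blastocyst values lay above all 4 cleavage values, but the row did not pass over all rows (log2 1.09, SE 0.31, edgeR adjusted p = 0.908). In granulosa cells HIST1H2BB was at 3.56, 16, 33.2 and 8.32 CPM in the blastocyst group and 18.4, 36, 32.2 and 23.6 in the cleavage group, overlapping.

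The fate difference of HIST1H2BB was tested between granulosa cells and biopsies by the interaction term. It came to log2 -2.02 (SE 0.66, edgeR adjusted p = 0.0662) and no core histone row of 31 passed, beside 6.9% of 28229 rows. The row was called with DESeq2 size factors in edgeR (adjusted p = 0.0468) and in DESeq2 (adjusted p = 0.0107), and had an edgeR adjusted p of 0.103 with the oocyte label as a block. Between cumulus and granulosa cells none of 26 core histone rows passed the interaction test, beside 10.2% of 21929 rows.

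HIST1H2AH was at 69.5, 94, 102 and 62.7 CPM in the blastocyst group and 156, 73.1, 144 and 193 in the cleavage group (log2 -0.77, SE 0.30, edgeR adjusted p = 0.99), where B23 alone overlapped the blastocyst libraries. HIST1H3I, a low H3 row, was at 4.93, 2.09, 2.95 and 6.34 against 0, 0, 0.853 and 1.29 CPM, without overlap (log2 2.94, SE 1.37, edgeR adjusted p = 1). HIST2H2AA4 and its near-identical copy HIST1H2AK differed by log2 -0.62, with D27 of the blastocyst group just above B14 of the cleavage group. H2AFX was at 19.8, 22.9, 24.6 and 24.8 CPM in the blastocyst group and 18.2, 10.3, 62.5 and 44.7 in the cleavage group, so the cleavage values surrounded the blastocyst values (log2 -0.55, SE 0.49).

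**Figure D5:**
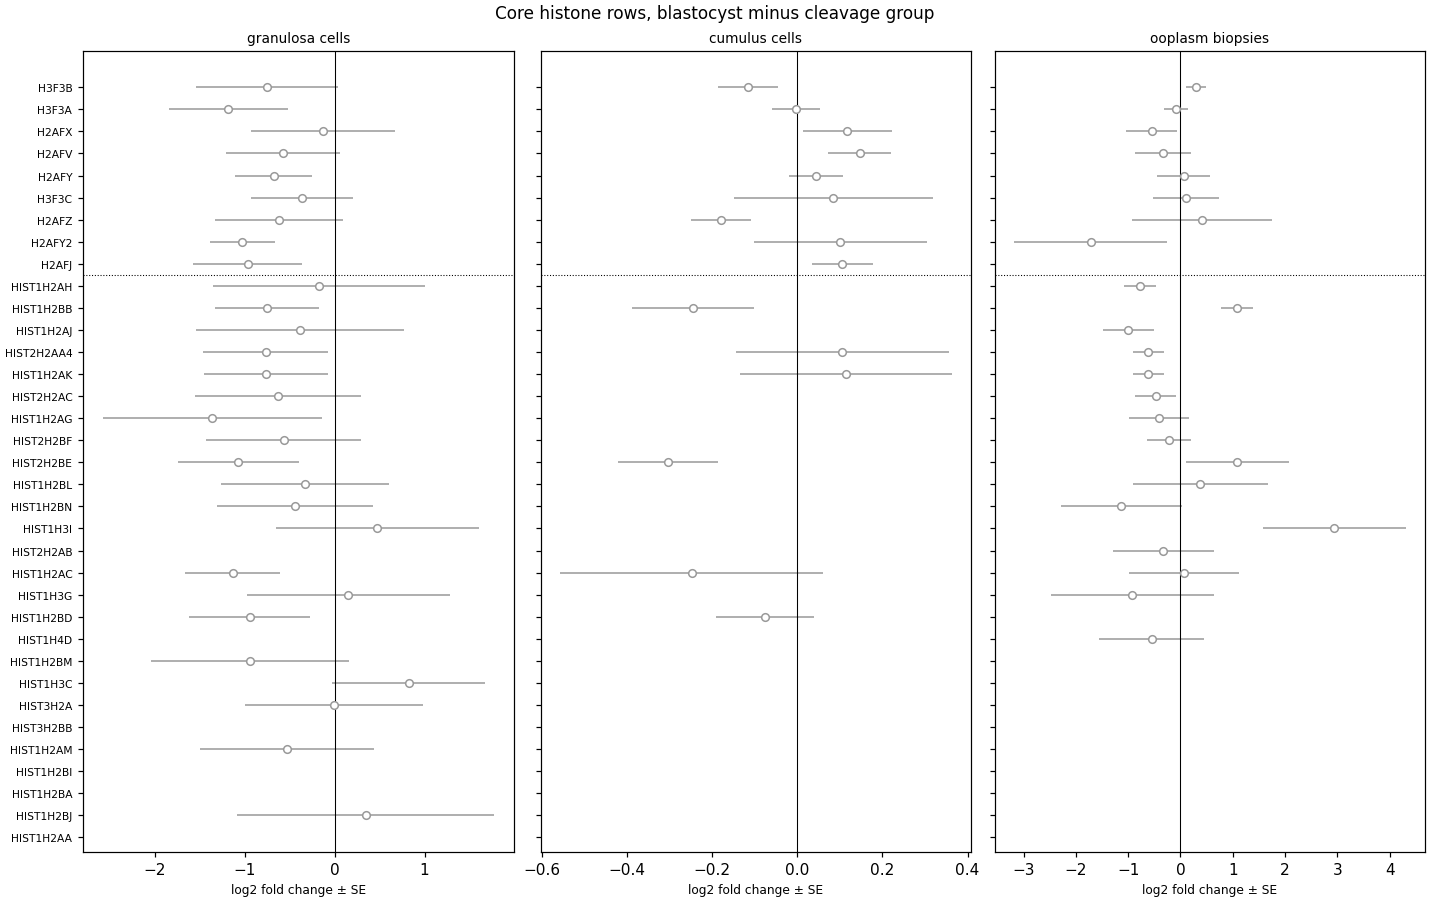
log2 fold change ± SE (linear axes, a different range in each panel) of core histone rows, blastocyst minus cleavage group, by edgeR. All points are open because none passed an adjusted p under 0.05; cumulus estimates stay within a narrow range, and HIST1H2BB lies right of 0 in biopsies and left of 0 in granulosa cells.

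Linker histones, which bind the DNA between spools, were the 1 related list with enough rows to follow, 9 of its 10 symbols having a row. In biopsies against granulosa cells 5 of 9 were higher and 4 lower (28.4% and 24.6% of all rows), in cumulus against granulosa cells 2 of 7 were higher and 5 lower (25% and 44.5%), and in oocytes against cumulus cells 5 of 7 were higher and 2 lower (48.3% and 41.7%), by edgeR quasi-likelihood. HIST1H1A, HIST1H1C and HIST1H1E, cluster linker genes, were among those higher in biopsies and in oocytes, at 215 ± 79.3, 75.8 ± 52.7 and 90.4 ± 45.6 CPM in biopsies. The other cluster linker genes, HIST1H1B and HIST1H1D, were lower in biopsies than in granulosa cells (log2 -5.51 and -1.07), and HIST1H1D was higher in oocytes than in cumulus cells (log2 3.46). H1FX and H1F0, polyadenylated linker genes, were lower in both and higher in cumulus than in granulosa cells, at 99.5 ± 18.4 and 96.4 ± 7.61 CPM in cumulus cells. In the fate and matched comparisons no linker row was called. The lists of histone mRNA processing factors, histone chaperones, S phase and mitosis genes had no row under their symbols, and 1, HIRA, was found by a RefSeq name, so these lists were not followed.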

How the data were processed

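RNA was amplified with the SMART-Seq HT kit and made into libraries with Nextera XT, per the labels' protocols. The submitters' processing notes name Trim Galore, cutadapt, STAR and featureCounts. Tool versions, strand settings and build: not given in the sources used here. Whole-number counts per row, in 4 tables of 59051 rows, are what the authors deposited, and they were analysed as they stood. Polar body DNA was not analysed here, since its table has 24 columns of values that could not be tied to a sample.

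Every contrast used its own libraries alone, fitted with edgeR 4.0.16 in R 4.3.3 (filterByExpr, TMM, robust quasi-likelihood F test, Benjamini-Hochberg over all rows tested, adjusted p under 0.05). Comparisons between cell types joined 2 tables by row name, with fate as a term where both sides carry one. CPM are TMM-scaled within a table to 1000000 counts. DESeq2 1.42.0, other scalings, no filter, blocks, the letter of the oocyte label and leaving out each library were the alternatives. Python 3.11.15 with pandas 2.3.3 and matplotlib 3.10.9 made tables and figures. The granulosa, cumulus and biopsy fate fits and that of biopsies against granulosa cells were also run on simulated counts. These counts had the same dispersion for every row and no outlying library, so they do not bear on libraries such as B20.

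The members, lists and tests were chosen with earlier results of these data known. Named rows are the called core histone rows, at most 10 of smallest p in each direction, or the 5 of smallest p where fewer than 5 passed, with every variant, the 3 most abundant cluster rows of each cell type and up to 4 called members of each list. The cell type lists and the lists of related genes hold 141 symbols, of which 9 had a row by symbol and 1 by a RefSeq name. The gene table of RefSeq served for names and neighbours.

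Granulosa and biopsy libraries share oocyte labels of one follicle, which pairs them by design; deviations from group means correlated at -0.035 to 0.146 in 8 same-label pairs and -0.177 to 0.161 in 56 others, across rows. Matched biopsies and oocytes share numbers, and same-number correlations were 0.250 to 0.345 in 4 pairs, beside -0.420 to 0.283 in 12 others. These ranges overlapped, so the correlations alone do not set the pairs apart. Floors and intervals cover counting error only.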

Additional observations from a re-analysis of the deposited data

Results flagged for a closer look

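In a group of 4 libraries, a library was singled out where its gap to the nearest other value took up most of the group's range (Dixon's 95% bound). Of 165 groups of values 14 were singled out, and chance alone gives about 1 in 20 groups.

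In granulosa cells of the blastocyst group, D24 was high for HIST1H2AH (6.86 CPM, next 0.631) and HIST1H2BD (11.6, next 3.29). In the cleavage group, D10 was high for HIST1H2AC (34.4, next 22.3) and B23 for HIST1H3I (2.57, next 0.308).

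Among blastocyst-group biopsies, B20 was high for H2AFJ (2.83 CPM, next 0.0546), and D27 was low for HIST1H2AJ (15.3, next 44.0) and high for HIST1H2BD (1.11, next 0.0525). Among cleavage-group biopsies, B23 was high for H2AFZ (8.89 CPM, next 1.18) and HIST1H2BD (4.09, next 0.0467), both rows of high level in granulosa or cumulus cells, and D29 was high for HIST1H2AC (6.32, next 1.08).

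In cumulus cells the steps were small: library 10 of the blastocyst group was low for H3F3A (306 CPM, next 334), and library 7 of the cleavage group was high for H2AFZ (383, next 352) and H3F3B (474, next 425). Whole oocyte 16 was high for HIST1H2AC (3.93 CPM, next 1.93).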

How the results depend on the processing

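No called core histone row changed sign under any alternative run. Between biopsies and granulosa cells 4 of 22 calls were lost under some of 22 alternatives (HIST1H4D under 13, HIST1H2AG under 12, HIST1H2AJ under 9 and HIST1H2BD under 1), and DESeq2 gave no p for H2AFJ. Between cumulus and granulosa cells no call was lost where the row was tested (HIST1H3C was too low in 3 fits), and between oocytes and cumulus cells 1 was (H2AFX). Some medians over rows did change sign, among them these: with library totals those of the matched set went from -0.06 to 0.09 (cluster) and -0.04 to 0.11 (variant), and that of all rows in oocytes against cumulus cells from 0.33 to -0.71; without B20 and D27 the cluster median between granulosa fates went from -0.55 to 0.02. The cause was not tested.

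Counts of all called rows moved most. Between granulosa fates they were 4964, and 11431 in DESeq2, 2482 to 8131 when leaving out 1 library, and 0 without B20 and D27 (this setting was added after seeing the data); called core histone rows ranged from 0 to 2 (2 without D24). Between cumulus fates 0 became 183 without a filter on low counts, 159 in DESeq2 and 0 to 7 when leaving out 1 library. Between biopsy fates 0 became 27 and 182, and in the matched set 13 and 190, in the same order. Oocytes against cumulus cells gave 26927 without a filter. The interaction of granulosa cells and biopsies gave 1948, and 3783 with library totals, 1237 without a filter and 5649 in DESeq2, with 1 core histone row, HIST1H2BB, with DESeq2 size factors and 1 in DESeq2. The interaction of cumulus and granulosa cells gave 2244, and 5604 in DESeq2. DESeq2 and the fits without a filter test more rows.

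With the oocyte label as a replicate block, biopsies against granulosa cells called 24 core histone rows, the same 22 and HIST1H2BM and HIST1H3C, and 14392 rows in all against 14944; the matched set called 0 rows and the interaction 1401, with 0 core histone rows. No paired analysis was possible in cumulus cells because their columns carry no title number.

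Shares among the core histone rows under the naming rule were also taken without the most abundant row of each class (HIST1H2AH and H3F3B). Cluster rows then made up 29.6% and 30.3% in biopsies (blastocyst, cleavage) and 29.8% and 27.2% in matched biopsies and oocytes. They made up 8.63% and 8.22% in granulosa cells and 7.35% and 8.02% in cumulus cells, with the fates in the same order. Counting both near-identical rows gave 15.0% in blastocyst-group biopsies. Rows under about 1 CPM rest on few counts, and levels there were not detectable below 0.171 CPM in biopsies and 0.380 in cumulus cells.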

Other observations

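Other core histone genes of these tables carry LOC numbers, and a further row is named H4 alone, so they fall outside the naming rule. The row named H4 averaged 0.178 CPM in biopsies and 3.44 in granulosa cells, and was lower in biopsies (log2 -4.59, SE 1.38, edgeR adjusted p = 0.0085). RefSeq names 29 rows with LOC numbers (7 H2A, 9 H2B, 4 H3 and 9 H4). These 29 were looked up after the counts had been seen and are given as levels with no test. The row named H2BK1, an H2B gene of the H2B.K type, was at 213 ± 85.2 CPM in biopsies and 181 ± 53.4 in whole oocytes, more than any named cluster row there, and at most 0.826 in a granulosa library and 0.112 in a cumulus library.

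Several H4 rows were far above HIST1H4D, the 1 H4 row under the naming rule. H4C14 was at 131 ± 44.2 CPM in biopsies, 61.4 ± 38.7 in granulosa cells and 12.2 ± 2.39 in cumulus cells. H4C1 followed the same order at 129, 60.6 and 17.8 CPM, and H4C13 at 75.4, 53.3 and 30.1 CPM. The H4 row H4C4 was highest in granulosa cells, at 14.8 CPM, and at 0.0175 in biopsies. The row named H4C19 was at 77.3 CPM in granulosa cells and 22.5 in biopsies, close to the linker row HIST1H1D (70.5 and 21.9). Both had 234 counts in their lowest biopsy, and whether they count the same reads was not tested. The level of H4C19 is therefore not read as that of an H4 gene. The H2B row H2BC4 had its highest level in cumulus cells, at 10.7 CPM, beside 3.73 in granulosa cells and 0.909 in biopsies. H4 genes encode one protein and are close copies, so reads may move between these rows.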
